A study of Mus musculus with 30 samples.

Results

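The oocyte Nlrp genes encode NOD-like receptor proteins with a pyrin domain and are known mainly from the growing oocyte. The 10 members described here were taken by name from the 55487 genes counted in each of 23 single mouse embryos. They are Nlrp2, Nlrp4a, Nlrp4b, Nlrp4c, Nlrp4e, Nlrp4f, Nlrp5, Nlrp9a, Nlrp9b and Nlrp14. Oocytes store mRNA and protein that direct the embryo after fertilization, and much of the stored mRNA is removed while the embryo's own genome is switched on. Nlrp5, also called Mater, encodes a protein of the subcortical maternal complex, an assembly beneath the egg's membrane that cleavage depends on, and Nlrp2 and Nlrp14 are also maternal-effect genes. The Nlrp4 and Nlrp9 genes are paralogs that multiplied in rodents.

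The study deleted several exons of Dis3, an exoribonuclease of the RNA exosome, by CRISPR, and sequenced polyadenylated RNA of single embryos from matings of heterozygous mice, so the oocyte of every embryo came from a Dis3+/- mother, after hormonal stimulation. The embryos were genotyped from their own DNA and collected at embryonic day 2.5 or 2.75. The E2.5 groups were 6 wild-type (WT, Dis3+/+), 2 heterozygous (het) and 4 null embryos, the E2.75 groups 3 WT, 5 het and 3 null embryos, each a library of its own. The allele was made in more than 1 line, and the labels do not say from which line an embryo came. The total count on genes ran from 1690192 to 14015980 per embryo, with a median of 8030848. The totals of the E2.75 null libraries were 1914128, 1690192 and 7051002, the first 2 of which were the lowest of all. Reads outside exons made up 21% to 25.1% of the E2.5 WT libraries and 32.3% to 39.5% of the E2.5 null libraries. At E2.75 the share was 23.5% to 33.4% in WT and 41.1% to 43.9% in null embryos, and its part in any result below was not tested. Levels are CPM after TMM normalization (counts scaled to a common library size), and calls needed a log2 fold change of more than 1 in either direction together with an adjusted p under 0.1. Intervals and floors treat each read as a separate count, sum the counts over a group's embryos and leave out the spread between embryos. The reads carry no molecular identifiers, so copies of a molecule made by amplification cannot be told apart, and the true error is larger.

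The Dis3 level was used to check the genotype labels. Counts cover the whole gene, and the null allele lacks only some exons, so reads on the other exons still count in null embryos. The Dis3 level was 18.0 CPM at the lowest, 85.6 at the median and 146 at the highest of the E2.5 WT embryos and 111, 64.1 and 106 CPM in the E2.75 WT embryos. Among the null embryos it was 15.9, 2.54, 0 and 14.3 CPM in those of E2.5, and E2.75 null embryos had 12.8, 21.4 and 10.1 CPM. The library labelled E2.5 WT replicate 6, at 18.0 CPM, lay above the 4 null embryos of its own stage and below 1 E2.75 null embryo, while the other 8 WT libraries lay above every null embryo. The Nlrp4c calls and the stage changes of Nlrp5 and Nlrp14 in WT embryos are given with and without it. Other values that use WT embryos of E2.5 include it unless stated. Het embryos held 58.0 and 58.9 CPM at E2.5 and 30.3 to 49.4 CPM at E2.75. With the stages merged, Dis3 was lower in null than in WT embryos by a log2 fold change of -3.01 (SE 0.54, adjusted p 0.000943, edgeR).

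The embryos were also checked against markers of cells that could travel with them. Each of 11 markers of the preimplantation embryo had counts in every group, with a summed level of 2233 to 9758 CPM per embryo and Dppa5a the most abundant. Of 9 cumulus and granulosa cell markers, Cyp11a1, Inhba and Ptx3 were at 0 in all 23 embryos, and the sum had a median of 4.94 CPM, with Star the most abundant. The sums of 5 sperm markers and 5 blood markers had medians of 0 and 0.433 CPM, with Prm2 and Hba-a1 the most abundant, and Tnp1, Hbb-bs and Hbb-bt were at 0 in all embryos. The highest cumulus and granulosa sums were 27 CPM in E2.5 null replicate 3 and 24.1 CPM in E2.5 WT replicate 1. The highest sperm sum, 3.64 CPM, was in the same null embryo, and the highest blood sum, 6.18 CPM, in the same WT embryo. Only 2 of the 9 cumulus and granulosa markers had a count in the E2.5 null group, with Has2 the most abundant. In the E2.5 WT group 3 of the 9 had a count, with Star the most abundant and Has2 at 0.

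Nlrp mRNA was present in every embryo, at low levels and from different members in different embryos. An embryo had counts for 3 to 9 of the 10 members, with a median of 6. Over the 230 pairs of a member and an embryo, 87 were at 0 (37.8%), 51 held 1 to 9 counts, 64 held 10 to 99 and 28 held 100 or more. Nlrp5 and Nlrp14 had counts in 22 of 23 embryos each, Nlrp4c in 19, Nlrp4a and Nlrp4f in 17, Nlrp4e in 13, Nlrp9b in 10, Nlrp9a in 9, and Nlrp2 and Nlrp4b in 7. A member at 0 in an embryo was not detectable at that embryo's depth. In these bulk samples, fewer cells with a transcript and less of it per cell cannot be told apart.

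**Figure D1:**
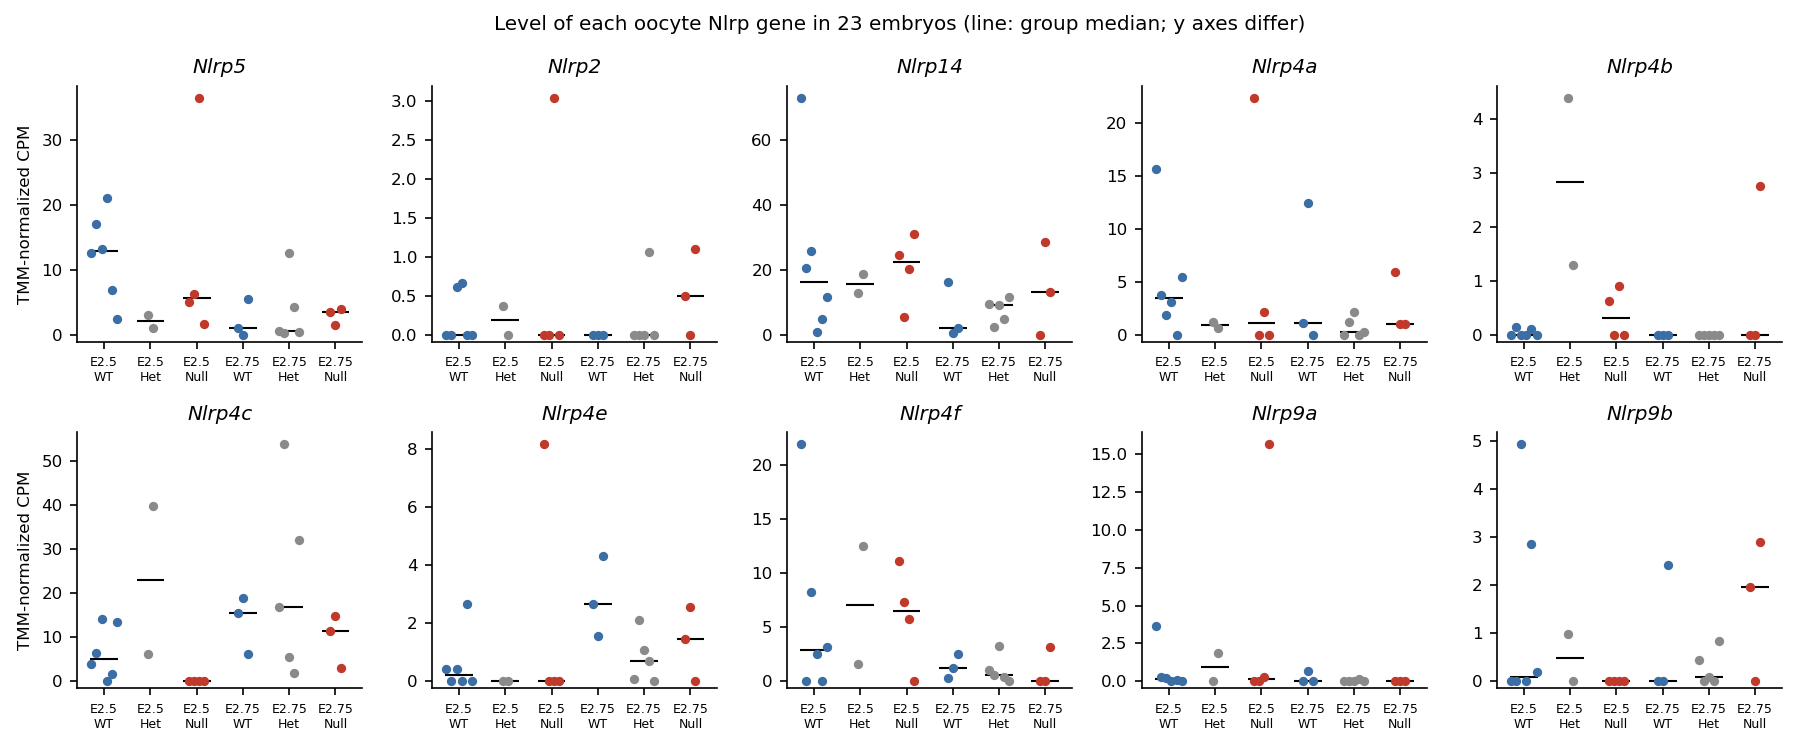
Level of each of the 10 members in TMM-normalized CPM (y axis, a scale of its own for each gene) in the 6 groups of genotype and stage (x axis), with 1 point per embryo and a line at the group's median. Nlrp4c sits at 0 or 0.103 CPM in the 4 E2.5 null embryos and between 3.03 and 14.8 CPM in the 3 E2.75 null embryos.

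Per kilobase of exon, which allows levels to be compared between genes, the mean over the 23 embryos was highest for Nlrp14, at 4.28 ± 4.45 CPM per kb (SD, n = 23), and next for Nlrp4c, at 2.87 ± 3.45. Nlrp5 followed at 1.44 ± 1.79 CPM per kb, Nlrp4f at 0.970 ± 1.39 and Nlrp4a at 0.727 ± 1.18. The other members ran from Nlrp4e at 0.360 through Nlrp9a, Nlrp9b and Nlrp4b to Nlrp2 at 0.0909 CPM per kb. Neighbours in this order differed by less than their SD. The order was not the same in each group: Nlrp14 led at E2.5 in WT and null embryos and at E2.75 in null embryos, and Nlrp4c led in E2.5 het, E2.75 WT and E2.75 het embryos. The member with the highest level per kb or CPM also changed from embryo to embryo, and by CPM it was Nlrp14 in 10 embryos, Nlrp4c in 8, Nlrp5 in 4 and Nlrp4f in 1. Nlrp4c made up 89.1% of the summed member level in E2.75 het replicate 2.

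The 10 members are not equally readable. The read length was not stated, so stretches of 50 bases were used as an assumed length. Of the stretches of 50 bases inside the exons, 100% occurred at a single place in the genome for Nlrp4b and Nlrp14, 99% for Nlrp2, 96.8% for Nlrp4a and 93.2% to 88.6% for Nlrp9a, Nlrp4f, Nlrp5 and Nlrp9b. The share was 85.7% for Nlrp4c and 57.4% for Nlrp4e, and these paralogs had 7.54% and 8.77% of their stretches in common. The counting program's line for reads that mapped to several places was 0 in all libraries, which does not show whether such reads were dropped or counted, so the levels of members with shared stretches are less sure.

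Nlrp4c, whose function is little known, was the only member called between genotypes or stages in the main fits. In E2.5 WT embryos it stood at 0 CPM at the lowest, 5.09 at the median and 14.2 at the highest, and the het embryos held 6.11 and 39.6 CPM. In the 4 E2.5 null embryos it stood at 0.103, 0, 0 and 0 CPM, a single count in all. At E2.5, 5 of 6 WT embryos and both het embryos lay above every null embryo, and the groups overlapped only through WT replicate 4, which had no count. At E2.75 the WT embryos held 15.4, 18.8 and 6.25 CPM, the het embryos 16.7, 53.7, 5.53, 1.76 and 31.9 CPM, and the null embryos 11.3, 14.8 and 3.03 CPM. The 3 genotypes overlapped at this stage, and each of the 3 null embryos lay above all 4 null embryos of the earlier stage.

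At E2.5, edgeR called 1 of 9 tested members different between null and WT embryos, against 1.82% of all 15904 genes tested. Nlrp4c was lower in null embryos by a log2 fold change of -6.97 (SE 1.70, unadjusted p 0.000894, adjusted p 0.0790). Since 1 null embryo had 1 count and the others none, this fold depends on the model's prior, and the ratio of the summed counts, 1 against 315 in WT, was 0.00730 of the WT level with a 95% counting interval of 0.000184 to 0.0410. Against the 479 counts of the het embryos the ratio was 0.00171, with an interval of 4.33e-05 to 0.00960. Most of those counts came from het replicate 2, at 39.6 CPM against 6.11 CPM in the other het embryo, so this ratio rests largely on it. The adjusted p lies near the threshold, and 9 of 12 fits that left out 1 embryo had no call, with adjusted p between 0.108 and 0.178 and log2 fold changes from -8.68 to -6.61. These were the fits without WT replicate 2, 3, 5 or 6, without het replicate 2 and without any of the 4 null embryos. Without WT replicate 6, the library with low Dis3, the WT median of Nlrp4c was 3.82 CPM, the log2 fold change -6.61 and the adjusted p 0.109. DESeq2 gave -6.85 with an adjusted p of 0.000575. Dis3 itself, called at E2.5 (log2 fold change -3.38, adjusted p 0.0929), lost its call in 11 of the same 12 fits, with adjusted p from 0.104 to 0.199. The replicate numbers did not pair the libraries. The fit with them as a block, described with the other settings, had no call of Nlrp4c (-6.41, adjusted p 0.256).

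**Figure D2:**
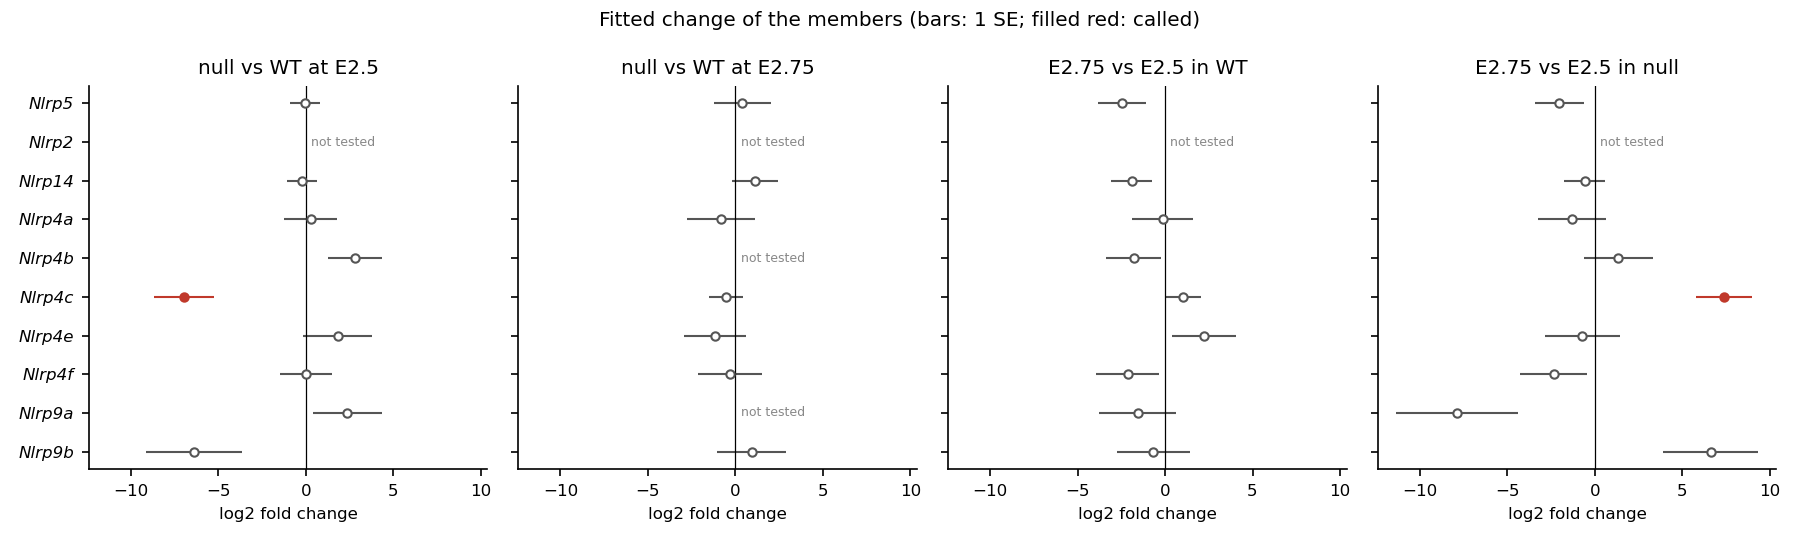
Fitted log2 fold change of each member (x axis, points with bars of 1 SE) between null and WT embryos at each stage and between stages within WT and within null embryos. Filled red points mark the 2 called values, both Nlrp4c, at -6.97 and 7.40, and members that the filter on low counts left out are marked as not tested.

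Nlrp4c then rose in null embryos. Between E2.5 and E2.75, edgeR called 1 of 9 tested members in null embryos, against 3% of all genes tested, and it was Nlrp4c, higher at E2.75 by a log2 fold change of 7.40 (SE 1.59, adjusted p 0.0222) in 3 of 3 embryos. The E2.5 embryos had 1 count and the E2.75 embryos 74 counts, and the ratio of the earlier to the later level was 0.00657 (95% counting interval 0.000164 to 0.0378). The call stood in 23 of 23 fits that left out 1 embryo, with adjusted p from 0.00860 to 0.0795, and without E2.5 WT replicate 6 the log2 fold change was 7.39 and the adjusted p 0.0213. It was lost when E2.75 null replicates 1 and 2, the libraries with the lowest totals, were left out together, a setting chosen after the data were seen, which leaves 1 null embryo at E2.75: the log2 fold change was then 5.83 and the adjusted p 0.261. In WT embryos the fitted change of this gene was 1.05 (SE 1.01, adjusted p 0.624). The difference between the stage changes of null and WT embryos was 6.35 (SE 1.93, unadjusted p 0.00292, adjusted p 0.340) and did not pass the threshold in edgeR, while DESeq2 called it at 6.38 (adjusted p 0.0484).

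In the main fits the other comparisons of Nlrp4c with null embryos gave no call. Null against het embryos was called with ERCC scaling (-2.97, adjusted p 0.0746). It was also called without E2.75 null replicates 1 and 2 (-5.05, adjusted p 0.0357), a setting chosen after the data were seen. With the stages merged, null embryos lay below het embryos by a log2 fold change of -2.48 (SE 1.12, unadjusted p 0.0360, adjusted p 0.247) and below WT embryos by -1.15 (SE 1.04, adjusted p 0.703). At E2.75 the log2 fold change was -0.54 (SE 0.97, adjusted p 0.832) against WT and -1.22 (SE 0.91, adjusted p 0.549) against het embryos. The merged null group joined 4 E2.5 embryos at 0 to 0.103 CPM with 3 E2.75 embryos at 3.03 to 14.8 CPM.

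Windows upstream of the start of Nlrp4c, Nlrp4b and Nlrp4a are shown, chosen after the sequences were seen. RefSeq, on GRCm38.p6, gives at least 1 window of 250 bases before an annotated start for 9 of the 10 members, and 12 windows in all, without one for Nlrp14. The longest run that the windows below have in common is CCAATCACATGG, 12 bases, in capitals. They lie on the + strand at chr7:6044911-6045160 for Nlrp4c, at chr7:10687543-10687792 for Nlrp4b and at chr7:26435364-26435613 for Nlrp4a, the last between exons of a longer transcript, and the run begins 18, 54 and 50 bases upstream of the start.
Nlrp4c: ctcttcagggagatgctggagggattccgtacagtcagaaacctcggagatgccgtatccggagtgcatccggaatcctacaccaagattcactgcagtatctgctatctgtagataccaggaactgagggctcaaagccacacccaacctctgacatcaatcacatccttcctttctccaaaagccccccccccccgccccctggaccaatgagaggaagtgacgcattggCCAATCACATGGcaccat
Nlrp4b: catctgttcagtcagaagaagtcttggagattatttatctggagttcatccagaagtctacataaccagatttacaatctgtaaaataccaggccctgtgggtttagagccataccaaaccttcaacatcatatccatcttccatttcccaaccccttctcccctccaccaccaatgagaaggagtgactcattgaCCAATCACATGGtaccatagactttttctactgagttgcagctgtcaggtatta
Nlrp4a: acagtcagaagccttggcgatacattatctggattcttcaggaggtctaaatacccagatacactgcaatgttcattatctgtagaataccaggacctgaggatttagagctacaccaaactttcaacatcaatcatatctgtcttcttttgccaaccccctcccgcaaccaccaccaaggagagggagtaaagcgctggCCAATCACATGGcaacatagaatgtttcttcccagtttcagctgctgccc
Searched on both strands, this run was in 6 of 32817 upstream windows of that length (0.0183%), and 4 of them belong to these 3 genes. The run was taken from the windows shown, so its presence in them was fixed in advance. The windows of Nlrp4b overlap and hold the same site of the run. The window of Nlrp4e did not hold the run. The run contains CCAAT, which was in 33.8% of all windows and in 8 of the 12 member windows. CAGCTG was in 13% of all windows and in 5 of the member windows, and TAATTA in 4.85% and in 2. A match describes letters in a window and says nothing about binding.

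Nlrp5 and Nlrp14, the other members with the highest levels, had no call between genotypes. Nlrp5 stood at 2.41 CPM at the lowest, 12.9 at the median and 21 at the highest of the E2.5 WT embryos, at 3.06 and 1.02 CPM in the het embryos and at 4.97, 6.26, 36.4 and 1.64 CPM in the null embryos. At E2.75 it stood at 1.06, 0 and 5.45 CPM in WT, 0.580, 0.30, 12.6, 4.24 and 0.420 CPM in het and 3.43, 1.53 and 3.99 CPM in null embryos. Most E2.5 WT embryos lay above the E2.75 WT embryos, and the groups overlapped because the lowest E2.5 WT embryo, replicate 6, lay below E2.75 WT replicate 3. Nlrp5 was lower at E2.75 in WT embryos by a log2 fold change of -2.47 (SE 1.35, unadjusted p 0.0796, adjusted p 0.314) and in null embryos by -2.02 (SE 1.39, adjusted p 0.490), and neither passed the test, against 7.38% and 3% of all genes. Without E2.5 WT replicate 6 every E2.5 WT embryo, at 6.85 CPM or more, lay above every E2.75 WT embryo, and the log2 fold change was -2.68 with an adjusted p of 0.265. Over all fits that left out 1 embryo it ran from -4.64 to -1.88 in WT and from -2.38 to -0.53 in null embryos, with no call. Over the other settings it ran from -4.34 to -1.39 in WT embryos. The replicate block gave the -4.34, which was called (adjusted p 0.0938, edgeR). Null and WT embryos differed by -0.09 with the stages merged (SE 0.90, adjusted p 0.986).

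Nlrp14, a maternal-effect gene also known from the testis, stood at 0.775 CPM at the lowest, 16.2 at the median and 73.1 at the highest of the E2.5 WT embryos. The E2.5 het embryos held 12.7 and 18.8 CPM and the E2.5 null embryos 24.7, 5.58, 20.3 and 31.1 CPM. At E2.75 it stood at 16.2, 0.443 and 2.22 CPM in WT, 9.60, 2.4, 9.08, 4.94 and 11.8 CPM in het and 0, 28.6 and 13.1 CPM in null embryos. The groups overlapped, and the highest null embryo at either stage lay above every het embryo. The log2 fold change from E2.5 to E2.75 was -1.90 in WT (SE 1.18, adjusted p 0.385) and -0.57 in null embryos (SE 1.17, adjusted p 0.887), and null against WT with the stages merged gave 0.03 (SE 0.78, adjusted p 0.996). Without E2.5 WT replicate 6 the stage change in WT was -2.04 with an adjusted p of 0.352, and over all 23 fits that left out 1 embryo it ran from -4.08 to -1.05, with no call.

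The remaining Nlrp4 genes differed in how many embryos held them. Nlrp4a reached 15.6 CPM in E2.5 WT replicate 1, 22.3 in E2.5 null replicate 1 and 12.4 in E2.75 WT replicate 2, and was at or below 5.88 CPM in the other 20 embryos. Nlrp4f ran from 0 to 21.9 CPM in E2.5 WT and from 0 to 11.1 CPM in E2.5 null embryos, with 1.59 and 12.5 CPM in the het embryos, and no embryo of the later stage held more than 3.22 CPM. Nlrp4e reached 8.17 CPM in E2.5 null replicate 1 and 1.55 to 4.34 CPM in the E2.75 WT embryos, and had no count in 10 embryos. Nlrp4b had 50 counts in the E2.5 het embryos, 2 in the WT and 9 in the null embryos of that stage, 20 in E2.75 null replicate 3 and none in the WT and het embryos of that stage.

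Nlrp9a and Nlrp9b, which have 4.32% and 4.01% of their 50-base stretches in common, differed in where they were found. Nlrp9a had 67 of its 68 E2.5 null counts in replicate 4, and 0 counts in the 3 E2.75 null embryos, which allows up to 3 counts over the group. Nlrp9b had 0 counts in the 4 E2.5 null embryos, 54 counts in the E2.5 WT embryos, from replicates 3, 5 and 6, and 25 in the E2.75 null embryos, from replicates 1 and 3. The fitted changes of these genes, which are no bounds because a group stood at 0, had unadjusted p of 0.0381 for Nlrp9b between null and WT at E2.5 (adjusted p 0.304), 0.0226 for Nlrp9b and 0.0331 for Nlrp9a between the stages in null embryos (adjusted p 0.228 and 0.260), and 0.0397 for the interaction of Nlrp9b (adjusted p 0.432). Nlrp2 had 37 counts in all 23 embryos, at most 3.04 CPM in an embryo, and was below the filter on low counts in each comparison.

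Read over all members, the comparisons gave few calls. In null against WT embryos with the stages merged, edgeR called 0 of 6 tested members, against 5.25% of all genes, with 0 members at an unadjusted p under 0.05 and 0 called by DESeq2. In null against het embryos it called 0 of 6, against 5.73%, with 1 member, Nlrp4c, at an unadjusted p under 0.05 and 0 called by DESeq2. In het against WT embryos 0 of 6 were called, against 0%, with 0 members at an unadjusted p under 0.05 and 0 called by DESeq2, and over all genes edgeR called 0, had 934 at an unadjusted p under 0.05 and DESeq2 called 65. The member with the largest difference here was Nlrp4a, lower in het embryos by a log2 fold change of -2.61 (SE 1.31, adjusted p 0.705) and higher in null than in het embryos by 2.57 (SE 1.35, adjusted p 0.330), comparisons that share the het embryos. The 4 members not tested in these fits were Nlrp2, Nlrp4b, Nlrp9a and Nlrp9b.

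At E2.5, another member besides Nlrp4c, Nlrp9b, had an unadjusted p under 0.05 between null and WT embryos, and the 9 tested members split into 4 higher and 5 lower in null embryos. At E2.75, edgeR called 0 of 7 tested members between null and WT embryos, against 4.54%, and 0 of 7 between null and het embryos, against 4.82%, with 0 at an unadjusted p under 0.05 in either and 0 called by DESeq2. From E2.5 to E2.75 in WT embryos edgeR called 0 of 9 tested members, against 7.38%, with 0 at an unadjusted p under 0.05 and 0 called by DESeq2. For the interaction it called 0 of 9, against 0%, with 2 at an unadjusted p under 0.05, while DESeq2 called 1 member, Nlrp4c. Over all genes the interaction had 0 calls in edgeR, 2045 genes at an unadjusted p under 0.05 and 344 calls in DESeq2. Leaving out WT replicate 6 changed the number of members called in 1 comparison, null against WT at E2.5, from 1 to 0.

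Between the stages in WT embryos no member passed the test, though Nlrp5 did with the replicate block (-4.34, adjusted p 0.0938). The fitted changes of the 9 tested members by TMM CPM were below 0 for 7 and above 0 for 2, Nlrp4c and Nlrp4e, with a median log2 fold change of -1.56 against -0.000717 over all genes tested. In null embryos, where only Nlrp4c passed, 6 were below 0 and 3, Nlrp4b, Nlrp4c and Nlrp9b, above 0, with a median of -0.72 against 0. A list of 38 oocyte and maternal-effect genes, which holds none of the members, had a median of -1.83 in WT and -1.29 in null embryos over its 33 tested genes. In WT embryos Dppa3, a maternal gene that protects the maternal genome's methylation, fell (log2 fold change -1.65, adjusted p 0.000137) as did Omt2b (-5.04, adjusted p 0.00806), and Trim28, a corepressor of imprinted regions and repeats, rose (1.15, adjusted p 0.0416). The Trim28 call ended without E2.75 WT replicate 1 or 3, with adjusted p from 0.103 to 0.196. In null embryos Dppa3 (-1.28), Omt2a (-4.09) and Omt2b (-4.55) fell, and the calls of Omt2a and Omt2b ended without any 1 of the E2.75 null embryos and that of Omt2a also without E2.5 null replicate 2 or 3, with adjusted p from 0.105 to 0.199. Scaled to the ERCC spike-ins, the median change of all genes between the stages was itself 0.89 in WT and 0.97 in null embryos, and the Dppa3 calls and the Omt2a call in null embryos ended. Without the 2 shallowest null libraries all 3 calls in null embryos ended. DESeq2 called 9 genes of this list between the stages in WT embryos, also Omt2a, Btg4, Rfpl4, Oosp1, H1foo and Npm2, and 4 in null embryos, also Bmp15. Over all genes DESeq2 called 1948 between the stages in WT and 1380 in null embryos.

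The summed level of the 10 members overlapped between the stages. The median of the Nlrp sum was 42.3 CPM in E2.5 WT, 53.1 in E2.5 het and 58.7 in E2.5 null embryos, and 35.1, 33.8 and 31.0 CPM in the same genotypes at E2.75. Over all embryos the sum ran from 13.2 to 131 CPM, and the groups overlapped. The sum of 7 oocyte markers, of which Zp3, a zona pellucida gene, was the most abundant in WT embryos and Bmp15 in E2.5 null embryos, had medians of 50.8 and 8.09 CPM at E2.5 and E2.75 in WT and of 56.9 and 20.6 CPM in null embryos, and for this sum by TMM CPM no E2.75 embryo reached the lowest E2.5 embryo. On the other scales, tried after the data were seen, the stages overlapped, with 1 E2.75 embryo above the lowest E2.5 embryo by plain library totals and 5 relative to ERCC counts. The 7 markers all belong to the list of 38 oocyte and maternal-effect genes above, so their sum is not separate from that list. For the Nlrp sum, the median of the E2.5 null embryos was 1.39 of that of E2.5 WT by TMM CPM and by plain library totals. Relative to ERCC counts it was 0.926. In WT embryos the direction of the Nlrp sum with stage depended on the scale: its E2.75 median was 0.831 of the E2.5 median by TMM CPM, 1.04 by plain library totals and 1.34 relative to ERCC counts. In null embryos the E2.75 median was the lower on all 3 scales, 31.9 against 52.8 by plain CPM and 725 against 755 when taken like CPM with the ERCC counts as the total. Nlrp4c, called higher with stage in null embryos, enters this sum.

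**Figure D3:**
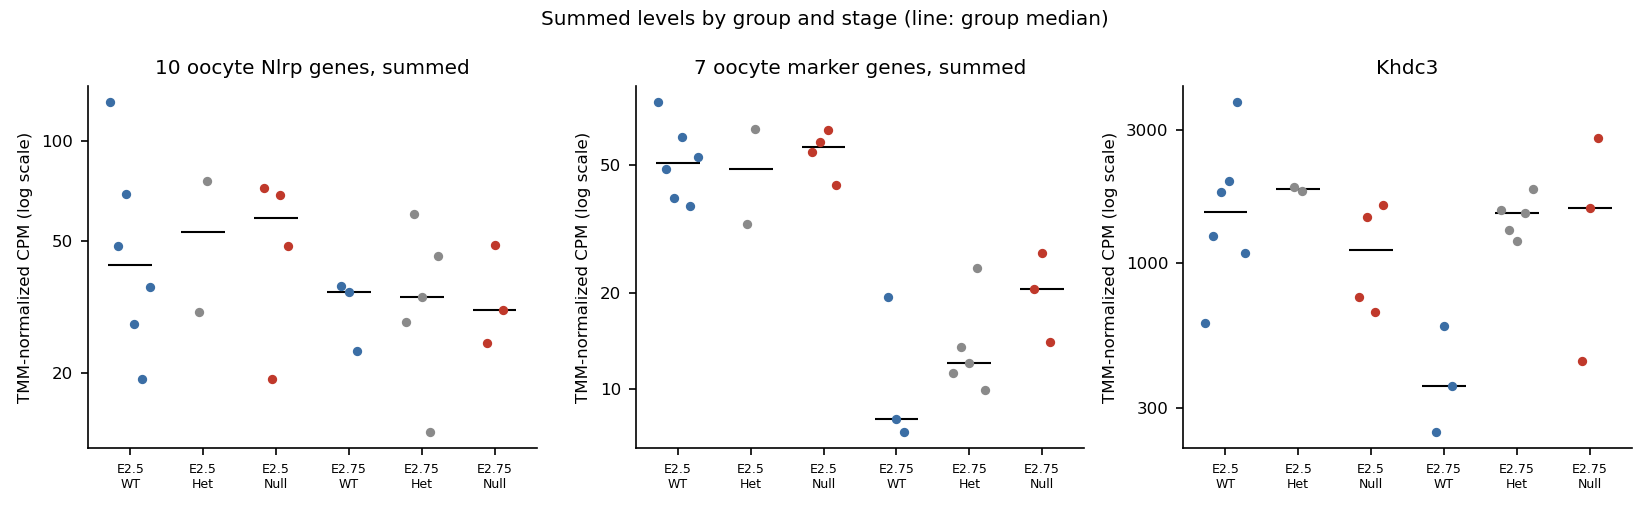
Summed TMM-normalized CPM (log y axis) of the 10 members, of the 7 oocyte marker genes, and the level of Khdc3, in the 6 groups of genotype and stage (x axis), with 1 point per embryo and a line at the group's median. The medians of the oocyte markers in WT embryos are 50.8 and 8.09 CPM at the earlier and later stage, and those of the Nlrp sum 42.3 and 35.1 CPM, an order that turns in WT embryos when counts are scaled to the spike-ins.

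Correlations between members over embryos had both signs. Among the 6 members tested in the merged fit, the 15 pairs had Pearson correlations of log2 CPM from -0.633 to 0.397 over the 23 embryos, with a median of 0.0417, and 8 of them were above 0. The lowest was between Nlrp4c and Nlrp5 (Spearman rho -0.708), and the highest between Nlrp4a and Nlrp4f. E2.75 het replicate 2, with 53.7 CPM of Nlrp4c, held 0.30 CPM of Nlrp5, and the E2.5 null and WT embryos without Nlrp4c held 1.64 to 36.4 CPM of Nlrp5. The correlation of these genes ran from -0.691 to -0.522 without E2.75 het replicate 2, the embryo farthest from the median of Nlrp4c, and 1 of the 4 embryos at 0 that tie for the next place, and it was -0.366 over the 12 E2.5 embryos and -0.783 over the 11 E2.75 embryos. Points share a library, a depth and, within groups, a genotype and a stage, so these values are descriptions and were not tested.

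**Figure D4:**
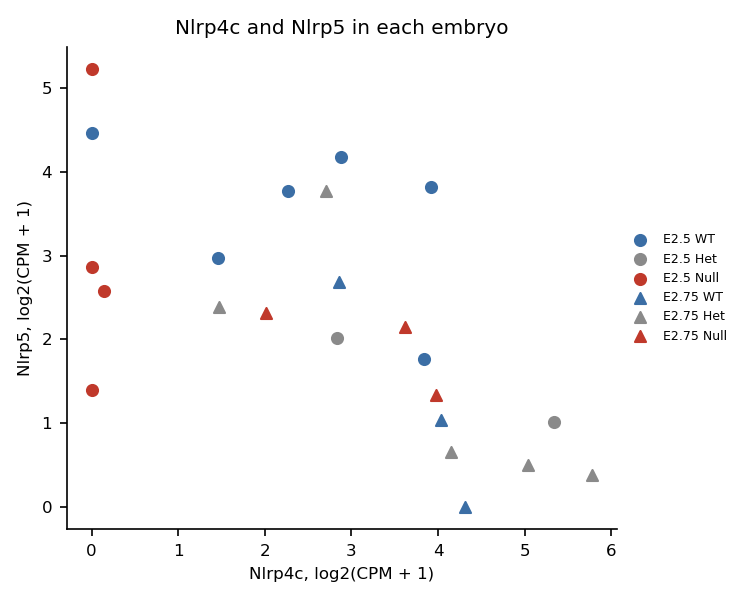
Level of Nlrp4c (x axis) against Nlrp5 (y axis), both as log2 of CPM plus 1, with 1 point per embryo, colored by genotype and shaped by stage. Over the 23 embryos r is -0.633, and over the 11 E2.75 embryos (triangles) it is -0.783.

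The spread between embryos was above the median for genes of like level in the 6 members tested with the stages merged, though Nlrp5 was near it. In that fit a change with stage, such as that of Nlrp4c in null embryos, counts as spread. The biological coefficient of variation of Nlrp4c was 1.31 against a median of 0.853 over the 1796 genes within 0.5 log2 CPM of it, and 94.4% of those genes had a smaller one. For Nlrp14 it was 1.02 against 0.760, with 86.9% of genes of like level below it, and for Nlrp5 1.16 against 1.04, with 65.8% below. For Nlrp4a, Nlrp4e and Nlrp4f it was 1.58, 1.92 and 1.61, above 74.3% to 79.1% of genes of like level. The genes outside the family whose level was most like the mean standardized level of the 6 members, over the 23 embryos, were Trim61 (r 0.754), Tmem87a (0.749), Crcp (0.748), Saxo1, Eif3c, Ylpm1, Agpat5, Ogfrl1, Phf3 and Haus6 (0.713).

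Of 5 partners of Nlrp5 in the subcortical maternal complex, edgeR called only Khdc3. Khdc3, also called Filia, stood at 608 to 3772 CPM in E2.5 WT embryos, at 246, 593 and 360 CPM in E2.75 WT embryos and at 441, 1578 and 2807 CPM in E2.75 null embryos. All 3 E2.75 WT embryos lay below the lowest E2.5 WT embryo, and at E2.75 the lowest null embryo lay inside the WT range and the other null embryos lay above it. The 5 E2.75 het embryos, at 1201 to 1848 CPM, also lay above every WT embryo of that stage, and null against het embryos gave 0.07 there (adjusted p 0.957), so the WT embryos stood apart from the het embryos and overlapped with the null embryos. Khdc3 was lower at E2.75 in WT embryos (log2 fold change -2.13, adjusted p 0.0147) and, at that stage, higher in null than in WT embryos by 1.95 (SE 0.48, adjusted p 0.0503). The second call was lost without WT replicate 1 or 3 or without null replicate 2 or 3, with adjusted p from 0.11 to 0.197 and log2 fold changes from 1.28 to 1.95. It was also lost with the replicate block, and with ERCC scaling neither call stood. The interaction for Khdc3 was 2.64 with an adjusted p of 0.267, and DESeq2 called it. The other proteins of the complex, Ooep, Tle6, Padi6 and Zbed3, were tested in each comparison and edgeR called none of them, while DESeq2 called Tle6 in 3 comparisons. Tle6 was lower in E2.75 null embryos than in WT (-3.98, unadjusted p 0.0224), than in het (-4.62, unadjusted p 0.00876) and than in E2.5 null embryos (-5.52, unadjusted p 0.00477), with adjusted p from 0.116 to 0.188, and of these 4 genes no other had an unadjusted p under 0.05. The E2.75 null embryos held 3 Tle6 counts in all, at 0 to 1.02 CPM, so the sizes of these folds are unsure. They overlapped with the E2.75 WT embryos, at 0.111 to 8.67 CPM. The E2.75 het embryos, at 1.40 to 14.8 CPM, and the E2.5 null embryos, at 2.13 to 38.0 CPM, lay above them. Nlrp5 itself differed between null and WT embryos at E2.75 by 0.40 (SE 1.64, adjusted p 0.934).

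Of 3 further oocyte paralogs, Nlrp4d had no count in any embryo and Nlrp4g had 2 counts in 1 embryo. Nlrp9c stood at 27.8, 23, 5.16 and 13.3 CPM in the E2.5 null embryos and at 0 to 6.77 CPM in the E2.5 WT embryos. It was higher in 3 of 4 null embryos than in every WT embryo of that stage, with a log2 fold change of 3.09 (unadjusted p 0.0318, adjusted p 0.283) that did not pass the threshold, and DESeq2 called it in 1 comparison, null against het at E2.75. Of 23 genes of the inflammasome and of other NOD-like receptors, 7 to 10 were tested in a comparison and edgeR called 0, with 0 or 1 at an unadjusted p under 0.05 and DESeq2 called 1, Nlrc4, in 1 comparison. Of 17 factors of maternal mRNA decay, each comparison tested 17. With the stages merged, null embryos exceeded het embryos in Dis3l, a cytoplasmic relative of Dis3, by 2.73 (adjusted p 0.0840), and between the stages in null embryos Pan2 rose by 2.39 (adjusted p 0.0247) and Pan3 fell (-1.20, adjusted p 0.0330), both subunits of a deadenylase. The Dis3l call stood in 13 of 23 fits that left out 1 embryo and ended with stage as a covariate, ERCC scaling and the replicate block. The merged groups differ in stage. The mean of Dis3l was 31.1 CPM at E2.5 and 6.49 at E2.75 in null embryos, and 3.26 and 3.08 CPM in het embryos. DESeq2 also called Pan2 between null and WT embryos at E2.5, Parn in both E2.75 comparisons and Ythdf3 between the stages in WT embryos. In the edgeR fits, without E2.75 null replicate 3 the adjusted p of Pan2 was 0.175. The Pan3 call ended without E2.75 null replicate 2 or 3, with adjusted p of 0.135 and 0.161, and also with ERCC scaling, with no filter and without the 2 shallowest null libraries. Among the maternal genes, Omt2a was higher in null than in het embryos by 2.60 with the stages merged (adjusted p 0.0990), a call that stood in 8 of 23 such fits and ended with stage as a covariate and 4 other settings of 8. The mean of Omt2a was 23.4 CPM in null and 3.70 CPM in het embryos of the earlier stage. Among embryos of the later stage it was 1.5 CPM in null and 1.75 CPM in het ones. DESeq2 called 5 maternal genes between null and het embryos with the stages merged, and 1784 over all genes.

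Of 10 members, 9 lie on chromosome 7 and Nlrp4f lies on chromosome 13. Nlrp4e (chr7:23301192-23362277) and Nlrp5 (chr7:23385889-23441922) are neighbours on the + strand, as are Nlrp4a (chr7:26435113-26476142) and Nlrp9a (chr7:26535023-26575615), while Nlrp4c (chr7:6045161-6105150), Nlrp4b (chr7:10687789-10730168), Nlrp9b (chr7:19991465-20073306) and Nlrp14 (chr7:107166990-107198102), also on the + strand, and Nlrp2 (chr7:5298547-5351035) on the - strand lie apart. Exons of 2 members overlap another gene, Nlrp2 by 105 bases and Nlrp9b by 136 bases. The fitted log2 fold changes with stage in WT embryos were 2.25 (SE 1.83) for Nlrp4e and -2.47 (SE 1.35) for its neighbour Nlrp5, and -0.13 (SE 1.73) for Nlrp4a and -1.56 (SE 2.2) for its neighbour Nlrp9a, with none called.

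The series also mapped POU6F1, a transcription factor, in mouse embryonic stem cells that expressed it fused to mCherry, in 4 peak lists from 2 replicates, each called against 1 of 2 controls. Of the 10 members 0 had a peak within 1 kb of an annotated start in any list, where 36.4% and 29.1% of 55450 genes had a peak in the lists of replicate 1, against IgG and against mCherry alone, and 23.8% and 7.18% in those of replicate 2, in the same order. No peak overlapped a member's gene body. Within 5 kb only Nlrp4f had peaks in both replicates, 4710 and 4749 bases from a start annotated inside the gene, both in the lists called against IgG, where 44.7% and 30% of all genes had a peak at that distance. In the lists against mCherry alone its nearest peaks lay 5403 and 749057 bases away, and 35.5% and 8.68% of all genes had a peak within 5 kb. For Nlrp4c the nearest peak lay 64672 bases from a start annotated inside the gene. Peaks in stem cells were not measured in embryos of these stages.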

How the data were processed

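Polyadenylated RNA of 23 single embryos was sequenced with ERCC spike-ins, and the labels give genotype, stage and replicate. Per the labels the authors used Cutadapt 3.4 for trimming, STAR 2.7.8a for alignment to GRCm38 and HTSeq 0.11.4 for the deposited raw count per gene, which ignores strand and is not normalized. The authors aligned the ChIP-seq reads with Bowtie2 2.4.4 and called the deposited peaks with MACS2 2.2.7.1, with IgG as the control for the list numbered 1 of each replicate and cells with mCherry alone for the list numbered 2, by the paper's numbering. The deposited peak lists give a score, a fold enrichment as a ratio over the control, and the -log10 of p and of q, and no read depth.

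Spike-ins and summary lines were left out of the totals, which ran from 1690192 to 14015980 per library. Reads outside exons were 21% to 43.9% of a library, and the multi-mapping line was 0 in all libraries. The tests were edgeR's quasi-likelihood tests (version 4.0.16, R 4.3.3, TMM, filterByExpr), with p-values adjusted by Benjamini-Hochberg over all genes tested. A call needed an adjusted p under 0.1 together with a change of more than 1 log2 unit. Genotypes were compared with the stages merged and within each stage, and stages within WT and null embryos with their interaction, in 9 comparisons. Ratios with 1 count in a group carry an exact 95% interval on the summed counts, which leaves out the spread between embryos. A count of 0 was taken to allow 3 counts. The fitting code was also tested on simulated data.

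Alternatives were DESeq2 1.42.0, RLE size factors, ERCC scaling, no filter, a replicate block, stage as a covariate, only the 2 genotypes compared, and each embryo left out. All 10 members, 5 proteins of the subcortical maternal complex and 3 further paralogs were named, as was each called gene of the lists of inflammasome, oocyte and mRNA decay genes and of the embryo, cumulus, sperm, blood and oocyte markers. Genes most like the members were the 10 with the highest Pearson correlation with their mean standardized log2 CPM. The members and lists were chosen with earlier results of these data known. Positions came from GENCODE vM21 and sequences from RefSeq on GRCm38.p6. Input signal tracks were not analysed here. Descriptions used Python 3.11.15, NumPy 2.4.6, pandas 2.3.3, SciPy 1.17.1 and Matplotlib 3.10.9.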

Additional observations from a re-analysis of the deposited data

Results flagged for a closer look

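In 12 of 28 pairs of a member and a group of 4 to 6 embryos with any count, 1 embryo stood far from the others of its group by the gap to its nearest neighbour. Chance alone does this in about 1 in 20 groups, though for genes at or near 0 in most embryos a single embryo with counts is enough, and the cause was not tested. In each of them the embryo lay above its group.

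Among the Nlrp4 genes, Nlrp4a stood at 15.6 CPM in E2.5 WT replicate 1, where the others held 0 to 5.41 CPM, and at 22.3 CPM in E2.5 null replicate 1, where the others held 0 to 2.13 CPM. Nlrp4e stood at 8.17 CPM in the same null embryo and at 2.66 CPM in E2.5 WT replicate 5. Nlrp4c in E2.5 null replicate 1, at 0.103 CPM, was a single count against 0 in the other null embryos.

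Nlrp14 stood at 73.1 CPM in E2.5 WT replicate 1, above 0.775 to 25.9 CPM in the other WT embryos, and Nlrp9a in the same embryo at 3.66 CPM. This is the deepest library, and its levels are scaled to depth. Nlrp5 stood at 36.4 CPM in E2.5 null replicate 3, above 1.64 to 6.26 CPM in the other null embryos, and Nlrp2 in that embryo at 3.04 CPM, from 10 counts. Nlrp9a stood at 15.7 CPM in E2.5 null replicate 4, from 67 counts. In E2.75 het replicate 4, Nlrp2 stood at 1.06 CPM and Nlrp9a at 0.176 CPM, the latter a single count.

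The stage change differed between null and WT embryos at an unadjusted p under 0.05 for 2 members, Nlrp4c by 6.35 log2 units (adjusted p 0.340) and Nlrp9b by 7.31 (adjusted p 0.432). Neither difference passed the adjustment over all genes in edgeR.

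E2.5 null replicate 3 and E2.5 WT replicate 1, named above, also held the highest sums of cumulus and granulosa markers, 27 and 24.1 CPM. These sums rest on few genes, since 2 of the 9 markers had a count in the E2.5 null group and 3 in the E2.5 WT group. Whether other cells added to their Nlrp counts was not tested.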

How the results depend on the processing

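The direction of Nlrp4c held in all 9 comparisons under each setting tried. Its call at E2.5 (main adjusted p 0.0790) stood with DESeq2, RLE, ERCC scaling and no filter (adjusted p 0.000575 to 0.0988). With a replicate block the number of members called at E2.5 was 0 (Nlrp4c -6.41, adjusted p 0.256), and leaving out 1 embryo gave 0 to 1. With the same block, 1 member was called between the stages in WT embryos (Nlrp5 -4.34, adjusted p 0.0938). Replicate numbers did not pair libraries, and the correlations of same-number pairs had a median of 0.00663. Between null and het embryos 1 member was called with ERCC scaling (Nlrp4c -2.97, adjusted p 0.0746) and 1 with E2.75 null replicates 1 and 2 left out, a setting chosen after seeing the data (-5.05, adjusted p 0.0357). With those embryos left out, the number called between the stages in null embryos was 0 (5.83, adjusted p 0.261), with 1 sample left in a group that is assumed to vary like the others. The interaction had 1 member called with DESeq2 and 1 with no filter (Nlrp4c 6.33, adjusted p 0.0461). In the other comparisons the number of members called stayed at 0.

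The summed member level at E2.75 in WT embryos was 0.831 of that at E2.5, 1.04 with plain library totals and 1.34 relative to ERCC counts. In het embryos it was 0.798 of E2.5 WT and 1.61 relative to ERCC counts. For the oocyte marker sum, 0 E2.75 embryos reached the lowest E2.5 embryo by TMM CPM, and 1 by plain library totals and 5 relative to ERCC counts, scales chosen after seeing the data. Within 5 kb in place of 1 kb, 1 member had a POU6F1 peak in both replicates. Khdc3 between the stages in null embryos ran from -0.18 to 1.00 over the fits without 1 embryo, with 1 change of sign, and with ERCC scaling it was called (1.57, adjusted p 0.0992).

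ERCC scaling moved the median change (log2) over the genes tested to -0.37 for null against WT, -1.08 for null against het, 0.71 for het against WT, -0.46 at E2.5, -0.40 and -0.74 at E2.75, 0.89 and 0.97 between the stages and 0.11 for the interaction. The number of genes called depended on the tool. Null against WT had 704, 1663 with DESeq2 and 3409 with no filter, and null against het 769, 1784 with DESeq2, 4776 with ERCC scaling, 1808 with no filter and 333 with the block. Het against WT had 0, and 65 with DESeq2. At E2.5 it was 289, 1260 with DESeq2, 91 with ERCC scaling, 539 with no filter and 41 with the block. At E2.75 null against WT had 656, 1994 with DESeq2, 1122 with no filter, 206 with the block and 148 without those null embryos, and null against het 696, then 1678, 1321, 93 and 142 in the same order and 2494 with ERCC scaling. Stage in WT had 1378, 3277 with ERCC scaling, 2104 with no filter and 913 with the block, and stage in null embryos 561, 1380 with DESeq2, 2008 with ERCC scaling and 28 without those null embryos. The interaction had 0, 344 with DESeq2, 221 with no filter and 2 with the block. Leaving out 1 embryo gave 52 to 217 at E2.5, 222 to 827 for null against WT and 292 to 776 for null against het at E2.75, 747 to 1530 for stage in WT and 131 to 767 for stage in null embryos. Causes were not tested.

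Depth limits what a 0 shows: 50 to 225 counts fell on all members together in an E2.75 null embryo and 113 to 696 in an E2.5 null embryo.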

Other observations

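Of 11 markers of the preimplantation embryo, edgeR called 4 between null and WT embryos at E2.75, against 4.54% of all genes, 1 between null and het embryos at that stage, against 4.82%, and 1 between null and het embryos with the stages merged, against 5.73%. DESeq2 called 5, also Krt18, in the first of these comparisons and 2, Krt18 and Krt8, in the second. In the third DESeq2 called 3, Krt18, Cdx2 and Krt8, and for the interaction 3, Gata6, Krt8 and Dppa5a. Over all genes DESeq2 called 1994, 1678, 1784 and 344 in the same order. Krt18, a keratin of the outer cells, was lower in null than in het embryos by a log2 fold change of -2.95 with the stages merged (adjusted p 0.0352) and of -3.20 at E2.75 (adjusted p 0.0383). At E2.75, Gata6, a transcription factor of the primitive endoderm, was higher in null than in WT embryos by 1.60 (adjusted p 0.0229), Krt8 by 1.94 (adjusted p 0.0887) and Dppa5a by 1.34 (adjusted p 0.0990), and Tead4, a transcription factor of the trophectoderm, was lower by -1.42 (adjusted p 0.0270). Against het embryos the mean of Krt8 was the lower in null embryos at E2.75, 52.0 against 139 CPM, a difference that DESeq2 called and edgeR did not. Between the stages in WT embryos Dppa5a (-2.23), Krt8 (-2.73) and Gata6 (-1.15) fell. The Krt8 and Dppa5a calls between null and WT embryos stood in 2 of 11 fits that left out 1 embryo. The Tead4 call and the E2.75 Krt18 call ended without null replicate 3, with adjusted p of 0.101 and 0.148, and the Krt18 call also with the replicate block. The Gata6 call between null and WT embryos ended with ERCC scaling and without the 2 shallowest null libraries. Its call between the stages in WT embryos ended without E2.5 WT replicate 5 or E2.75 WT replicate 1 or 3, and with ERCC scaling, the replicate block and the shallowest null libraries left out.

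At E2.75 the 3 WT embryos held 12.9 ± 5.31 CPM of Krt8 (SD, n = 3), below the 139 ± 46.2 CPM of the het embryos (n = 5), while Nlrp4c overlapped between these groups.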
